A study of Mus musculus with 62 samples.

Results

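Translation efficiency (TE) was compared between C2C12 cells that overexpress RPL3 (RPL3 OE cells) and cells that carry the empty vector (control cells). The comparison rests on 12 of the 62 samples of the series, chosen by their labels, namely 3 RNA-seq and 3 Ribo-seq libraries of each group. C2C12 cells are mouse myoblasts, the dividing precursors of muscle fibers, kept as an established line. Control cells were infected with the empty retrovirus and RPL3 OE cells with the same vector carrying the mouse *Rpl3* coding sequence. Both were selected with puromycin and grown under proliferative conditions, with no picking of clones described, and the samples of a group are described as biologically independent. The transgene is driven by the vector, so that its level is not under the control of the *Rpl3* promoter. A further group of the same design, RPL3L OE cells, carries the mouse *Rpl3l* coding sequence and was used to estimate the spread and for a direct comparison of TE.

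RPL3, also named uL3, is a core protein of the large ribosomal subunit. It reaches from the surface of the subunit toward the peptidyl transferase center, where peptide bonds form, and it is made in all tissues, whereas its paralog RPL3L is found in striated muscle. Ribo-seq sequences the mRNA fragments that ribosomes protect from nuclease, RNA-seq measures the mRNA, and TE is the number of footprints per mRNA. TE falls when footprints rise less than the mRNA does, and it is a measure relative to the other genes of a library, which says nothing of the total rate of protein synthesis. For the same reason, a change in the amount of RNA per cell or in the share of cells of a type cannot be told apart from a change within each cell.

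The control libraries held 14324795 to 29746110 counts in RNA-seq and 3167026 to 4228211 in Ribo-seq, and the RPL3 OE libraries held 7647102 to 11669868 and 3528147 to 5974289, respectively. All transcripts with a position lie on the plus strand, and *Rpl3* itself is on the minus strand and is not analysed here, so that the overexpression could not be checked on the targeted gene. *Rpl3l* had between 1 and 9 RNA-seq counts in each of the 6 control and RPL3 OE libraries, against at least 16434 in RPL3L OE cells. The Ribo-seq library of RPL3 OE replicate 3 stood apart from the other 2 of its group, since its counts differed from theirs by a chi-square of 1.93 and 2.3 times its degrees of freedom, compared with 1.43 between these 2 and 1.37 to 1.86 among control libraries. In RNA-seq, the same measure was 2.18 to 3.01 among control and 1.66 to 1.83 among RPL3 OE libraries. It also depends on depth, which differs between libraries. Counts of TE calls against control, and the calls of named genes, are given both ways where they change without RPL3 OE replicate 3. Of the 12 myoblast markers, 6 were in the table, *Myod1* and *Des* among them, and their summed level (counts-per-million, CPM, of all counts) was 765 to 808 in control and 541 to 593 in RPL3 OE RNA-seq. The 7 fibroblast markers in the table summed to 406 to 435 in control and 874 to 882 in RPL3 OE RNA-seq. Without *Col1a1*, which is 1 of the 5 genes below, they summed to 81.3 to 86.8 and 110 to 119. Most of that remainder was from *Pdgfrb*, at 72.3 to 75.8 and 101 to 109 CPM, whereas the levels of *Dcn* and *Pdgfra* overlapped between the groups. *Thy1*, a defining fibroblast marker, was at 0 in all 6 of these RNA-seq libraries. *Cdh5*, *Epcam* and *Adipoq*, defining markers of endothelial, epithelial and fat cells, were at or near 0, and in RNA-seq the sums of these lists were 1.54 to 2.03, 0.202 to 0.698 and 44 to 47.3 in control and 1.4 to 1.97, 0.171 to 0.654 and 41.9 to 49.5 in RPL3 OE cells, the last from *Pparg*. The summed level of the blood and immune list was 35.6 to 37.4 in control and 28 to 28.4 in RPL3 OE cells, nearly all of it from *Hba-a1*. That of the neural list, mostly *Tubb3*, was 126 to 130 and 120 to 130. The part of the lower myoblast sum and of the higher *Col1a1* and *Pdgfrb* levels in the results below was not tested.

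Of the 5354 genes tested, 5 manifested a significant change in TE (0.0934%), and all 5 were lower in RPL3 OE cells. They encode secreted matrix proteins (*Col1a1* and *Thbs1*), small calcium-binding proteins (*S100a4* and *S100a6*) and a regulatory light chain of nonmuscle and smooth muscle myosin (*Myl9*). Their TE changes, given as log2 fold changes throughout, lay between -0.44 and -0.32. In edgeR's quasi-likelihood test of the group-by-assay interaction, with Benjamini-Hochberg adjustment over all genes, 0 genes were higher, whereas at an unadjusted p-value under 0.05 there were 436 genes (8.14%), with 196 higher and 240 lower (3.66% and 4.48%). Over all genes, the changes in TE had a median of 0.00 and an SD of 0.224 on the log2 scale, and the median standard error of a single gene was 0.133. No gene that passed changed by as much as 2-fold. With DESeq2, 11 genes passed, 1 of which was higher. When libraries were left out, the number was 30, all lower, in the absence of RPL3 OE replicate 3, and 3 in the absence of control replicate 2 or of either other RPL3 OE replicate.

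The 5 genes are shown here by the sequence around their start codon, where a ribosome begins to translate, since initiation is a step at which TE can differ between mRNAs. Each line gives 12 bases before the start codon, the start codon in capitals and 15 bases of coding sequence, from GENCODE M21 on GRCm38 and 5′ to 3′ on the plus strand.
Col1a1: tagggtctagacATGttcagctttgtggac
S100a4: tcaacggttaccATGgcaagacccttggag
Myl9: cccaaaggcaagATGtcgagcaagagagcc
Thbs1: aaaggctccaccATGgagctcctgcgggga
S100a6: cagtgatcagtcATGgcatgccctctggat
All 5 have A or G at the third base before the start codon, a feature of the Kozak context, as do 86.6% of the 5199 tested genes with such a window. *S100a4*, *Thbs1* and *S100a6* also have G right after the start codon, whereas *Col1a1* and *Myl9* have T there. Genes with A or G at the third base before the start codon had a median TE change of 0.002, and the 697 genes with C or T had one of -0.003.

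*Col1a1* (chromosome 11 from 94936224 to 94953042, GRCm38) encodes the alpha 1 chain of type I collagen. Its mRNA was at 346, 352 and 319 CPM (scaled by the TMM method) in the control libraries and at 779, 758 and 768 in the RPL3 OE libraries. Its footprints were at 810, 908 and 791 CPM and at 1484, 1444 and 1472 CPM, respectively. Both measures were thus higher in every RPL3 OE library than in any control library, but the rise was larger in mRNA (1.18 on the log2 scale, with a standard error of 0.03 and adjusted p = 1.01e-35 from edgeR) than in footprints (0.81, standard error 0.05). Its TE change was -0.37 (standard error 0.06, adjusted p = 0.00177 from edgeR). *Col1a1* passed in all 18 settings of the fit that give values per gene.

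*Thbs1* (chromosome 2 from 118111876 to 118127133) encodes thrombospondin 1, a secreted glycoprotein of the matrix. The mRNA of *Thbs1* was at 252.5, 264 and 248 CPM in control cells and at 551, 564 and 559 CPM in RPL3 OE cells, and its footprints at 742, 818 and 739 CPM and at 1365, 1311 and 1366 CPM. It followed the same pattern as *Col1a1*, with log2 fold changes of 1.13 in mRNA and 0.81 in footprints, with no overlap of the groups in either assay. Its TE change was -0.32 (standard error 0.06, adjusted p = 0.00791 from edgeR). The call was lost when control replicate 2, control replicate 3 or RPL3 OE replicate 2 was left out, with adjusted p-values of 0.062, 0.103 and 0.11 from edgeR.

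*Myl9* (chromosome 2 from 156775420 to 156781658) was the least abundant in counts of the 5, with 408 to 988 RNA-seq counts per library. The mRNA of *Myl9* was at 29.3, 33.5 and 33.1 CPM in control cells and at 53.8, 52.8 and 56.5 CPM in RPL3 OE cells. Its footprints were at 116, 121 and 121.5 CPM and at 138, 148 and 163 CPM, so that neither assay had an overlap of the groups. The log2 fold changes were 0.76 in mRNA, 0.32 in footprints (adjusted p = 0.000139 from edgeR) and -0.44 in TE (standard error 0.09, adjusted p = 0.00791 from edgeR). Without RPL3 OE replicate 1 the adjusted p for TE was 0.11, and DESeq2 gave no adjusted p for the gene.

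*S100a4* (chromosome 3 from 90603771 to 90606045) encodes a calcium-binding protein that interacts with nonmuscle myosin. Its mRNA was at 1651, 1702 and 1743 CPM in control cells and at 2081, 2169 and 2096 CPM in RPL3 OE cells, whereas its footprints were at 1313, 1634 and 1436 CPM and at 1266, 1231 and 1581 CPM. The mRNA groups did not overlap, but those of the footprints did, since RPL3 OE replicate 3 lay above 2 of the control libraries. The log2 fold changes were 0.32 in mRNA (adjusted p = 1.46e-12 from edgeR), -0.11 in footprints (adjusted p = 0.372) and -0.42 in TE (standard error 0.08, adjusted p = 0.00791 from edgeR). Leaving out RPL3 OE replicate 3 gave -0.55 in TE, and leaving out control replicate 2 or RPL3 OE replicates 1 or 2 ended the call (adjusted p = 0.146, 0.126 and 0.235 from edgeR).

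*S100a6* (chromosome 3 from 90613760 to 90624181 for the transcript counted), a neighbor of *S100a4*, encodes a related protein of dividing cells. Its 3 transcripts in the table share nearly all reads, and the start context above is that of the coding transcript ENSMUST00000001051.8. Its mRNA was at 921, 1079 and 973 CPM in control cells and at 1183, 1143 and 1182 CPM in RPL3 OE cells, and its footprints at 1130, 1335 and 1261 CPM and at 1053, 1048 and 1280 CPM. As for *S100a4*, only the mRNA groups were apart, and RPL3 OE replicate 3 was the highest RPL3 OE library in footprints. The log2 fold changes were 0.24 in mRNA, -0.14 in footprints (adjusted p = 0.144 from edgeR) and -0.38 in TE (standard error 0.08, adjusted p = 0.0162 from edgeR), and without RPL3 OE replicate 3 the TE change was -0.48. This call was lost when control replicate 3, RPL3 OE replicates 1 or 2 or RPL3L OE replicate 2 was left out (adjusted p = 0.245, 0.37, 0.162 and 0.0502 from edgeR), with DESeq2 and with only the control and RPL3 OE libraries in the fit (0.0606 and 0.0854), and the last 2 settings also ended that of *S100a4* (0.0521 and 0.0663). All 5 genes thus had more mRNA in RPL3 OE cells, and the same RNA-seq libraries enter the mRNA and the TE value.

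**Figure D1:**
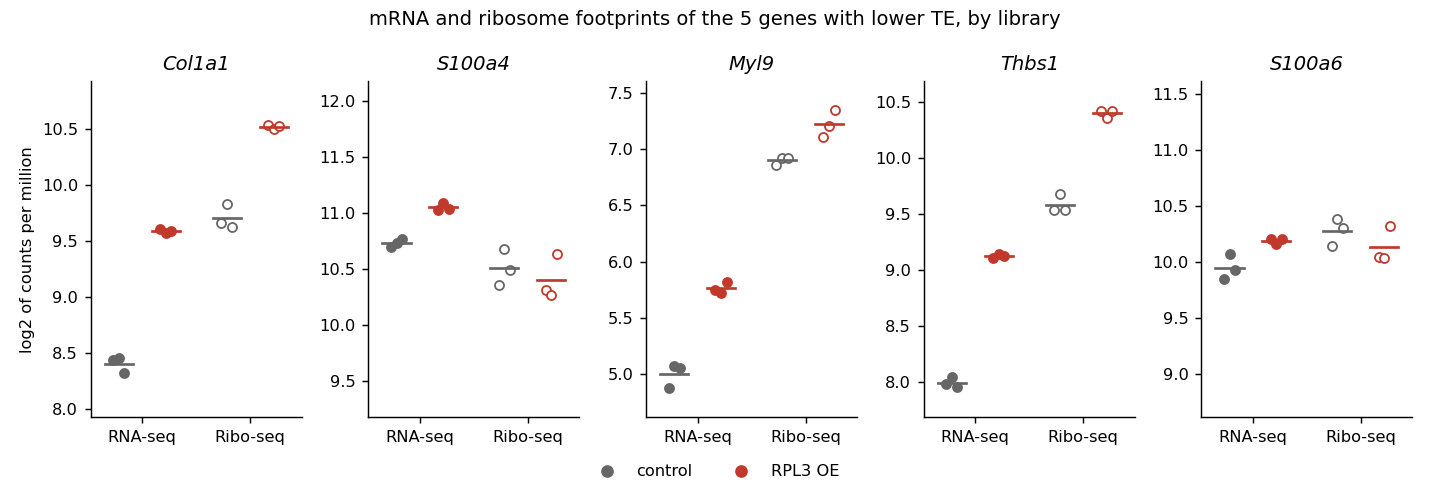
Level of the 5 genes with lower TE, as log2 CPM, in the 3 control (gray) and 3 RPL3 OE (red) libraries of RNA-seq (filled) and Ribo-seq (open), with a line at the mean of the log2 values. The mRNA of *Col1a1*, *Thbs1* and *Myl9* rose by 1.18, 1.13 and 0.76 and their footprints by 0.81, 0.81 and 0.32, whereas the footprints of *S100a4* and *S100a6* overlap between the groups.

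The genes next in line by p-value did not pass and are given as values. On the lower side, they included *Bgn*, the gene for the matrix proteoglycan biglycan, with a TE change of -0.24 (adjusted p = 0.0982 from edgeR), and *Ccn2*, the gene for connective tissue growth factor, with -0.30 (adjusted p = 0.101 from edgeR). The mRNA of *Ccn2* rose by 1.35 and that of *Bgn* by 0.50, and their footprints by 1.05 and 0.26. *S100a11*, another S100 gene, had -0.28. *Ing5*, which encodes a subunit of histone acetyltransferase complexes, differed in that its mRNA did not pass, at 10.4, 8.92 and 9.33 CPM in control and 8.31, 10.6 and 10.7 CPM in RPL3 OE cells. Its footprints were at 58.5, 47.8 and 49.9 CPM and at 37, 29.2 and 36.2 CPM, without overlap, and its TE change was -0.71 (standard error 0.16, adjusted p = 0.0577 from edgeR). *Ing5* passed with a mean count of at least 50 as the filter (adjusted p = 0.0453 from edgeR) and in the absence of RPL3 OE replicate 1 (0.0243). The remaining 4 were *Msl3l2* (-2.03), *Larp1b* (-0.49), *Mthfd2l* (-0.78) and *Pcbp4* (-0.25). Without RPL3 OE replicate 3, *S100a11*, *Bgn*, *Mthfd2l*, *Larp1b* and *Msl3l2* passed, with adjusted p-values of 0.000342, 0.00319, 0.00338, 0.0134 and 0.0385 from edgeR, and *Larp1b* also passed without control replicate 3 (0.034). DESeq2 called *Bgn*, *S100a11*, *Pcbp4* and *Ccn2* (adjusted p = 0.000517, 0.0416, 0.0416 and 0.0458).

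On the higher side, the smallest adjusted p was 0.217, for *Sarnp*, a gene for a protein of mRNA export, with a TE change of 0.30. *Cald1*, the gene for caldesmon, which binds actin and myosin, had 0.22 (standard error 0.06, adjusted p = 0.25 from edgeR). Its mRNA was at 376, 390 and 380.5 CPM in control cells and 426.5, 425 and 416 CPM in RPL3 OE cells, and its footprints at 357, 364 and 357.5 CPM and at 462.5, 443 and 485 CPM. Both assays were higher in RPL3 OE cells without overlap, with the larger change in the footprints (0.36 compared with 0.14 in mRNA). *Cald1* was also the gene called higher by DESeq2 (adjusted p = 0.0416) and with library totals in place of TMM (adjusted p = 0.0317 from edgeR). The others were *Cetn3* (0.35), *Paqr8* (0.92), *Eif1a* (0.33), *Qars* (0.26), *Zzz3* (0.38) and *Srek1ip1* (0.73).

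Changes in mRNA and in footprints passed far more often than changes in TE, which are measured less precisely. The median standard error of a single gene was 0.0765 in mRNA and 0.103 in footprints, beside 0.133 in TE. The SDs of the changes were 0.271, 0.268 and 0.224, respectively, so that the counts of calls do not compare the size of the changes. For mRNA, 970 genes passed (18.1%), with 520 higher and 450 lower (9.71% and 8.4%), and for footprints 676 (12.6%), with 317 higher and 359 lower (5.92% and 6.71%) in RPL3 OE cells. Library totals in place of TMM turned the latter split to 404 higher and 299 lower, and DESeq2 called 312 genes for footprints, 140 of which were higher. Of the 970 genes, 411 also passed for footprints in the same direction and 0 in the opposite direction, and 559 passed for mRNA only. Called or not, footprints changed in the direction of the mRNA in 472 of the 520 higher and 413 of the 450 lower genes. Conversely, 265 genes passed for footprints only, with 104 higher and 161 lower. Across the 5354 genes, Pearson's r between the log2 fold changes of mRNA and footprints was 0.653, and it was 0.756 across the 411 genes with a mean footprint count of at least 1000. These are descriptions across genes, which share libraries and are not independent replicates.

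Footprints followed the larger mRNA changes with a smaller change. Among the 106 genes whose mRNA rose by at least 0.5 on the log2 scale, the median log2 fold change was 0.79 in mRNA, 0.52 in footprints and -0.24 in TE, and 89 had a TE change below 0. Among the 118 genes whose mRNA fell by at least that much, the medians were -0.78, -0.63 and 0.16, and 38 had a TE change below 0. Since the mRNA value is part of the TE value and these genes were selected on it, an error in the RNA-seq libraries alone gives TE a change of the opposite sign, and its part in these medians was not tested.

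**Figure D2:**
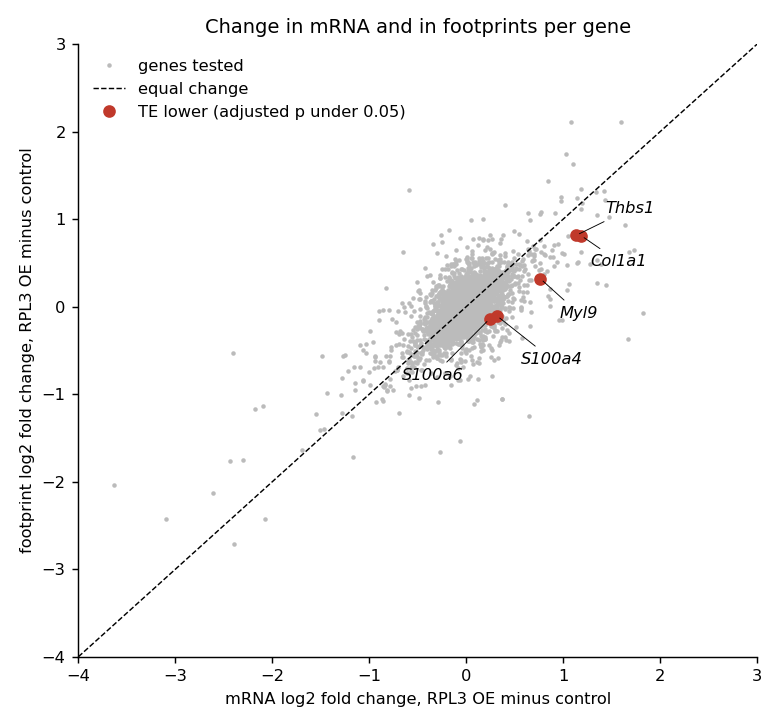
Log2 fold change of each of the 5354 genes in mRNA (x axis) and in ribosome footprints (y axis), RPL3 OE minus control, with the 5 genes with lower TE in red and a dashed line where both changes are equal. The 5 genes lie below the line, with mRNA changes from 0.24 to 1.18 and footprint changes from -0.14 to 0.81.

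The largest mRNA increases that passed without overlap of the groups were those of *Col27a1*, a fibrillar collagen gene (1.83), *Tg* (1.73) and *Tnfaip6* (1.67), all genes with few counts. The largest decreases were those of *Cyp11a1*, the gene for the enzyme that begins steroid synthesis from cholesterol (-3.64), *Cd40*, a receptor gene of the tumor necrosis factor family (-3.09), and *Pdlim3*, a gene for a protein of the muscle Z-disc (-2.61). For *Cyp11a1*, the control libraries had 65 to 135 RNA-seq counts and the RPL3 OE libraries 0 to 5. In footprints, the largest increases were those of the chemokine gene *Cxcl12* (2.11), the NADPH oxidase gene *Nox4* (2.11) and *Plagl1* (1.75), and the largest decreases those of *Trp53i11* (-2.71), *Cd40* (-2.43) and the adhesion receptor gene *Adgrg1* (-2.43). Control libraries had few footprint counts of *Nox4* (4 to 7) and *Plagl1* (2 to 9), and RPL3 OE libraries few of *Trp53i11* (2 to 9) and *Cd40* (2 to 10). *Cxcl12* footprints were at 9.9, 11.5 and 8.95 CPM in control and at 43.5, 46 and 40.6 CPM in RPL3 OE cells, and its mRNA at 7.5, 6.6 and 7.52 CPM and at 19.1, 22.3 and 23.9 CPM. The TE changes of these genes lay between -1.88 for *Col27a1* and 1.58 for *Cyp11a1*, and none passed, although *Col27a1* did so without RPL3 OE replicate 3 (-2.42, adjusted p = 0.0376 from edgeR).

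Among the components of the translation machinery, no gene passed for TE. Of the 42 cytosolic ribosomal protein genes tested, 37 had a lower and 5 a higher TE, and the median was -0.11, beside 0.00 over all genes. At an unadjusted p under 0.05 there were 12 lower and 0 higher, beside 4.48% and 3.66% of all genes. Their mRNA had a median of 0.02, with 3 genes higher and 0 lower, beside 9.71% and 8.4% of all genes. For footprints 6 fell and 1 rose, beside 6.71% and 5.92% of all genes, and the median was -0.09. *Rps15*, *Rpl38* and *Rpl36*, genes for proteins of both subunits, had TE changes of -0.22, -0.19 and -0.22 (adjusted p = 0.4, 0.443 and 0.438 from edgeR), and *Rps2* had the highest value (0.15, standard error 0.34). The summed footprint level of the list was 29656, 33593 and 31517 CPM in control and 28437, 27869 and 32679 CPM in RPL3 OE cells. Replicate 3 of the RPL3 OE cells lay within the control range and the other 2 below it. Without it, the median TE change was -0.20, 3 genes passed for TE and 28 for footprints, all lower, and with DESeq2 0 passed for either. Over all genes, 30 passed lower for TE without it. For footprints, 172 to 373 of all genes passed lower over the 17 settings that give values per gene. The fit without RPL3 OE replicate 3 is among these. The number of genes tested differs between settings, and the share of all genes in that fit alone is not given here.

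The TE of the 33 translation factor genes showed a median of 0.05, with 26 above 0. *Eif1a*, which encodes a factor for scanning to the start codon, had 0.33 (adjusted p = 0.29 from edgeR) and its footprints rose by 0.50, and *Eif3j1*, a gene for a subunit of the initiation factor eIF3, had 0.23. For ribosome biogenesis, 47 of 68 genes were above 0 with a median of 0.06, including *Taf1b* (0.39), a gene of the RNA polymerase I machinery, and *Ipo5* and *Ipo7* (both 0.15), genes for importins that carry ribosomal proteins into the nucleus, and *Nop10* had the lowest value (-0.23). The 47 mitochondrial ribosomal protein genes had a median of 0.02, between -0.23 for *Mrpl33* and 0.25 for *Mrpl1*, and the 19 aminoacyl-tRNA synthetase genes a median of -0.01, with *Qars* at 0.26.

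The replication-dependent histone genes had the lowest median of the lists. Of 27 tested, 26 had a lower TE, with a median of -0.32, and none passed, although 1 did with DESeq2. At an unadjusted p under 0.05 there were 7 lower and 0 higher, beside 4.48% and 3.66% of all genes. For footprints 23 of the 27 fell (beside 6.71% of all genes) and the median was -0.25. For mRNA 1 rose and 0 fell, beside 9.71% and 8.4% of all genes, and the median was 0.10. The TE change of *Hist1h2bm* was -1.10 (standard error 0.32, adjusted p = 0.26 from edgeR) and that of *Hist1h4m*, a histone H4 gene, -0.87 (adjusted p = 0.345 from edgeR), and *Hist3h2a* was the gene above 0 (0.17). Histone mRNAs of this class end in a stem-loop and lack a poly(A) tail, and the RNA-seq libraries were made from mRNA selected by its poly(A) tail. The summed mRNA level of the list was 189, 227 and 201 CPM in control and 210, 208 and 225 CPM in RPL3 OE cells, and the summed footprint level was 18952, 23716 and 21176 CPM and 16910, 16656 and 20109 CPM, with replicate 3 of the RPL3 OE cells above the lowest control library. Many of the genes are near-identical to others of their own histone class and multiple mapping was allowed. Counts within a class can thus share reads, and the 27 values are not independent. Their coding sequences are rich in G and C (median 66%, beside 52.9% over all genes). With the trend of each library with GC content removed, the median TE change was -0.16 and 5 of the 27 passed for footprints, and with DESeq2 7 did. Without RPL3 OE replicate 3 the median TE change was -0.42 and 26 passed for footprints, all lower. Over all genes, 172 to 373 passed lower for footprints over the 17 settings that give values per gene, with no share given for the fit without RPL3 OE replicate 3 alone.

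**Figure D3:**
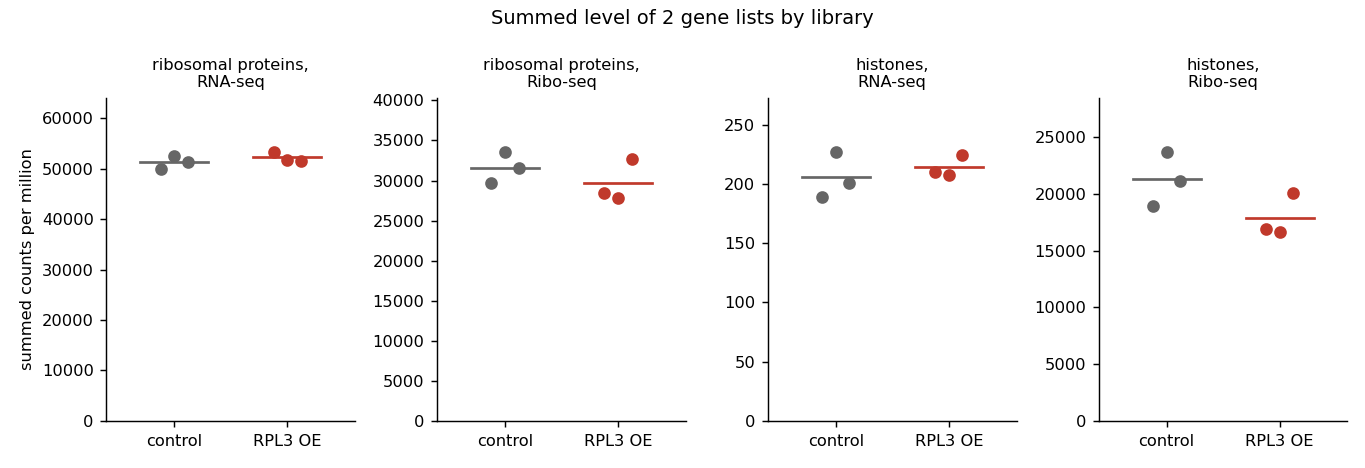
Summed CPM of the 42 cytosolic ribosomal protein genes and the 27 histone genes tested, by library (points) with the group mean (line), from 0. The mRNA sums overlap between control and RPL3 OE cells, and in Ribo-seq RPL3 OE replicate 3 lies higher than the other RPL3 OE libraries, at 32679 and 20109 CPM.

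The 11 S100 and annexin genes tested had a median TE change of -0.12, with 7 below 0 and 2 called, the *S100a4* and *S100a6* described above. Their mRNA rose in 7 and fell in 1, with a median of 0.20, beside 9.71% of all genes higher and 8.4% lower. Their footprints rose in 3 and fell in 1, with a median of -0.03, beside 5.92% of all genes higher and 6.71% lower. Without RPL3 OE replicate 3, 4 of the S100 proteins and annexins passed for TE, all lower, of the 30 over all genes. For footprints 2 rose and 4 fell there. Over all genes, 140 to 404 rose and 172 to 373 fell in footprints over the 17 settings that give values per gene, again with no share for that fit alone. *S100a10*, which was chosen after its values were seen, had -0.27, and *S100a13* had the highest value (0.13). Of the 50 extracellular matrix genes, 33 had a TE change below 0 (median -0.06) and 2 passed, *Col1a1* and *Thbs1*. For mRNA 25 rose and 6 fell (median 0.16), beside 9.71% and 8.4% of all genes. For footprints 19 rose and 5 fell (median 0.15), beside 5.92% and 6.71% of all genes. Leaving out RPL3 OE replicate 3 gave 4 matrix genes past the threshold for TE, all lower, of the 30 over all genes. *Adamts4*, a gene for a protease of proteoglycans, had the highest value in TE (0.57), with an mRNA change of -1.06. Of the 46 genes of the actin cytoskeleton, 33 had a TE change below 0 (median -0.03) and *Myl9* passed. Their mRNA rose in 18 and fell in 2, again beside 9.71% and 8.4% of all genes. Their footprints rose in 11 and fell in 1, beside 5.92% and 6.71% of all genes. In the absence of RPL3 OE replicate 3, 3 of them passed for TE, all lower, of the 30 over all genes. Their footprints rose in 7 and fell in 3 there, beside the same 140 to 404 and 172 to 373 of all genes. *Cnn1*, the gene for calponin 1 of smooth muscle, had the largest mRNA increase of those named here (1.47) with footprints at 1.02, and *Cfl1*, the gene for the actin-severing protein cofilin 1, had -0.21 in TE (adjusted p = 0.415 from edgeR).

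Among the myogenic regulators, genes passed for mRNA and footprints, but none for TE. Of the 14 tested, 8 fell in mRNA and 8 in footprints (beside 8.4% and 6.71% of all genes), with medians of -0.33 in both. In mRNA 2 rose and in footprints 1 (beside 9.71% and 5.92%), and the median TE change was -0.06 with 0 genes called. *Cdh15*, the gene for M-cadherin, fell by 0.44 in mRNA and 0.33 in footprints, and *Id1*, a gene for an inhibitor of the myogenic factors, by 0.57 and 0.73. *Mef2c*, the gene for a muscle transcription factor, had the highest TE value (0.67, adjusted p = 0.509 from edgeR). All 6 myoblast markers of the table are members of this list, so that the lower marker sum given above is not a separate observation. The 10 skeletal muscle contraction genes had a median TE change of -0.04, between -0.92 for *Casq2* and 0.65 for *Myh3*, with few counts for most of them. *Tnnt2*, the gene for a troponin T, had 0.31, and both its mRNA (0.16) and its footprints (0.47) rose.

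Of the 20 immediate-early genes tested, 14 had a TE change below 0, with a median of -0.10 and 0 called, and for footprints 8 fell and 1 rose, beside 6.71% and 5.92% of all genes. *Dusp4*, the gene for a phosphatase of the MAP kinases, fell by 0.61 in footprints and 0.42 in mRNA, and *Ier3* by 0.36 in footprints. The mRNA of *Myc* rose by 0.29, its footprints had 0.07 and its TE -0.21 (adjusted p = 0.403 from edgeR). The mRNAs with regulatory upstream reading frames and of the integrated stress response had a median TE change of -0.02 over 21 genes, with *Atf4*, the transcription factor gene whose translation rises in that response, at 0.18 (adjusted p = 0.562 from edgeR). *Oaz1*, which encodes the antizyme of polyamine control and is translated through a frameshift, had -0.22, and its footprints fell by 0.22. Without RPL3 OE replicate 3, *Oaz1* passed for TE (-0.28, adjusted p = 0.0483 from edgeR), as 1 of the 30 over all genes.

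In the other lists, 0 members passed for TE in the full comparison. Under other settings, the chaperone gene *Hspb1* passed with DESeq2 (adjusted p = 0.0416) and without RPL3 OE replicate 3 (0.00997 from edgeR). *Stat2* passed without RPL3 OE replicate 2 (-1.83, adjusted p = 0.0269 from edgeR). The zinc finger gene *Zfp383* did so without control replicate 1 (-1.77, adjusted p = 0.0139 from edgeR). The median TE change was 0.07 for 134 zinc finger genes, of which 83 were above 0, and lay between 0.003 and 0.11 over the 18 settings. It was 0.02 for 42 chaperone genes, 0.00 for 26 proteasome genes, -0.01 for 31 genes of secretory pathway entry and folding and -0.02 for 42 genes of DNA replication and the cell cycle. It was -0.02 for 14 interferon and chemokine genes, -0.04 for 24 respiratory chain genes and -0.06 for 14 p53 target genes. Within them, the mRNA of 9 secretory pathway genes and the footprints of 8 rose (of 31, beside 9.71% and 5.92% of all genes), and none fell. *Srp54a* and *Srp54b*, near-identical genes for the signal recognition particle whose counts share reads, both rose by 0.21 in mRNA and 0.33 in footprints. *Stat2*, a transcription factor gene of the interferon response, had a TE change of -1.19 (adjusted p = 0.202 from edgeR), and its footprints fell by 1.07. The footprints of *Trp53*, the gene for p53, and of *Ccnd3*, the gene for cyclin D3, fell by 0.24 and 0.46.

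**Figure D4:**
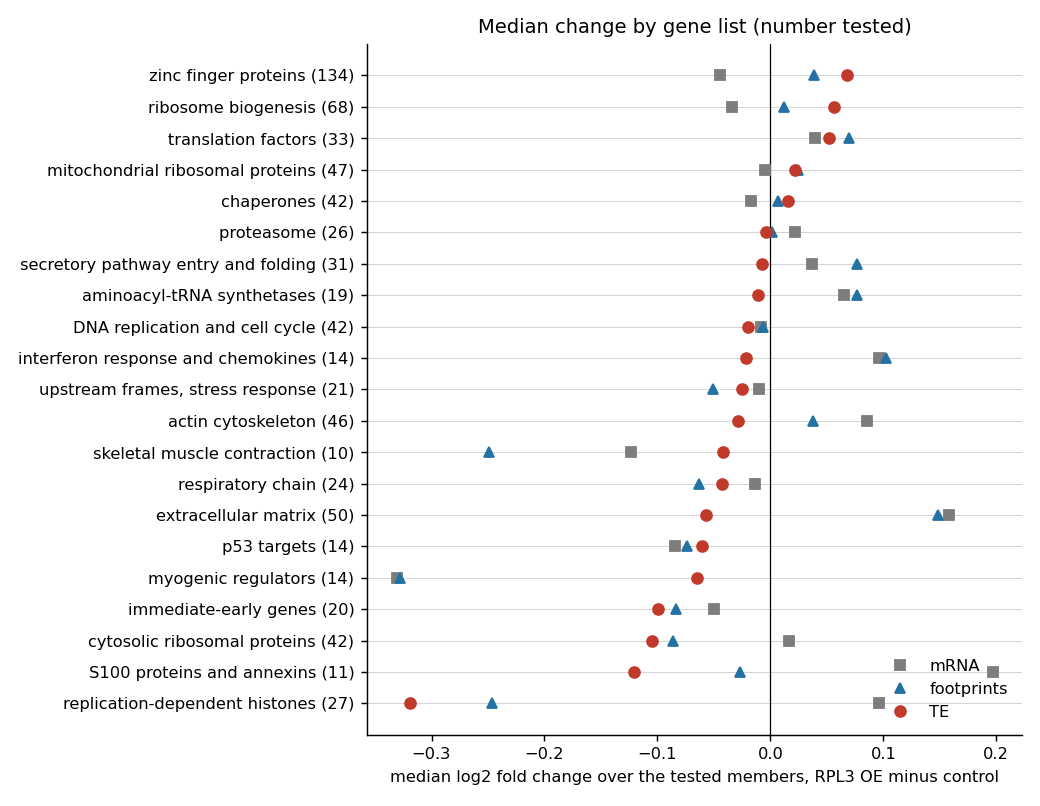
Median log2 fold change, RPL3 OE minus control, in mRNA (squares), footprints (triangles) and TE (circles) over the tested members of each of the 21 gene lists, ordered by TE, with the number tested in brackets. TE medians run from -0.32 for the histones to 0.07 for the zinc finger genes, and the myogenic regulators stand out by mRNA and footprint medians of -0.33. The lists also differ in coding GC content.

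The change in TE was lower in genes with a higher GC content of the coding sequence. When the genes were split into quintiles by GC content, the lowest (35.2% to 47.2%, 1069 genes) had a median TE change of 0.067 with 29.9% of the genes below 0, whereas the highest (58.2% to 75.2%, 1070 genes) had -0.066 and 67.7%. The medians for footprints went from 0.088 to -0.075 and those for mRNA from 0.016 to -0.008. Pearson's r across the 5347 genes with a coding sequence was -0.238 for TE with GC content and 0.016 with the logarithm of coding length, as a description across genes that share the same libraries. Over the quintiles of coding length, the median TE change ranged from -0.008 to 0.005. The gene lists differ in coding GC content too, beside a median of 52.9% over all genes. Medians were 48.4% for zinc finger, 49.3% for translation factor, 48.8% for proteasome, 59.3% for immediate-early and 59.9% for myogenic regulator genes. The proteasome list had a median TE change of 0.00, and the part of GC content in these list medians was not tested.

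In each library, the level of the highest GC quintile was set against that of the lowest, as the difference of the medians of log2 CPM relative to the mean of all libraries of the assay. In Ribo-seq, it was 0.105, 0.156 and 0.136 in control and -0.063, 0.024 and -0.059 in RPL3 OE cells, without overlap, and in RNA-seq 0.036, -0.012 and 0.006 and 0.033, -0.039 and -0.046, with overlap. The difference between the groups was -0.165 in Ribo-seq (control 0.132 ± 0.026 and RPL3 OE -0.033 ± 0.049, SD, n = 3, exact two-sided permutation p = 0.1, the smallest that 3 against 3 libraries can give) and -0.027 in RNA-seq (exact permutation p = 0.3). RPL3L OE cells, which are compared with the same control libraries, had -0.093, -0.096 and -0.085 in Ribo-seq. Whether the trend arose in the preparation of the libraries or in the cells was not tested. With the trend removed, 7 genes passed for TE, all lower, namely *Col1a1*, *Thbs1*, *Myl9*, *S100a4*, *S100a6*, *S100a11* and *Ing5*.

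**Figure D5:**
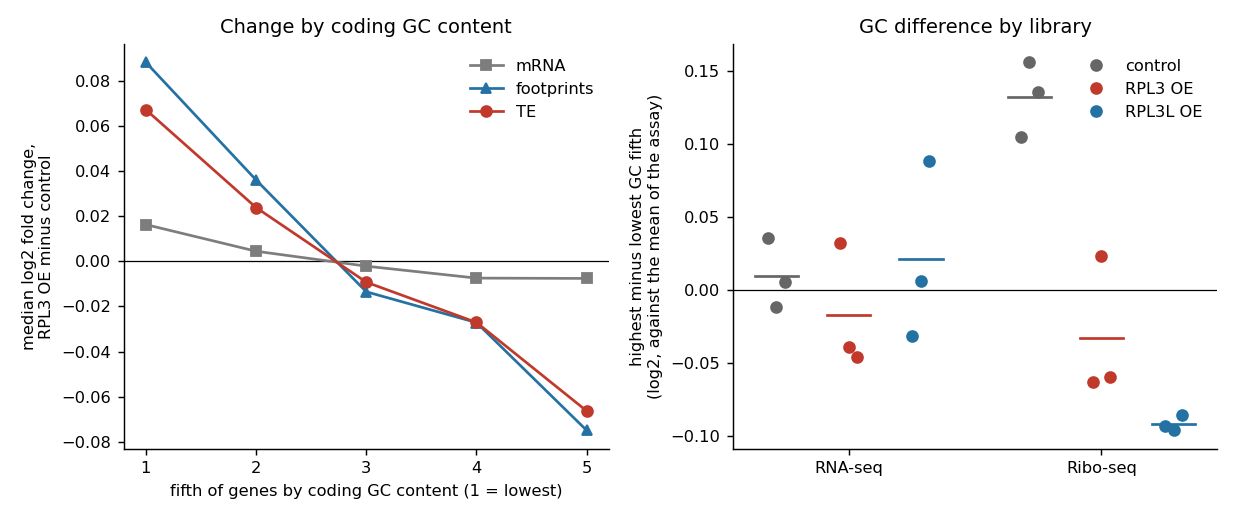
Left, median log2 fold change (RPL3 OE minus control) in mRNA, footprints and TE by quintile of coding GC content. Right, difference between the highest and lowest GC quintile in each library, relative to the mean of the assay, with group means as lines. The 3 control Ribo-seq libraries lie between 0.105 and 0.156, above all RPL3 OE and RPL3L OE Ribo-seq libraries.

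To determine where TE in RPL3 OE cells differed from that in RPL3L OE cells, the groups were compared directly in the same fit. Of the 5354 genes, 14 passed (0.261%), with 7 higher and 7 lower in RPL3L OE cells. Leaving out control replicates 1 or 2 gave 24 and 22 genes, leaving out RPL3 OE replicates 1, 2 or 3 gave 4, 3 and 22, and leaving out RPL3L OE replicates 1, 2 or 3 gave 4, 2 and 5. *S100a4* was the 1 gene of the 14 that also passed between RPL3 OE and control cells. Its TE change was -0.42 in RPL3 OE and -0.03 in RPL3L OE cells, each against the same control libraries, and the direct difference was 0.40 (standard error 0.08, adjusted p = 0.017 from edgeR). In RPL3L OE cells its mRNA was at 1510, 1466 and 1463 CPM and its footprints at 1274, 1310 and 1161 CPM, all below the control range. The direct call was lost with DESeq2 (adjusted p = 0.226) and when RPL3 OE replicates 1 or 2 (0.13 and 0.224 from edgeR) or RPL3L OE replicates 1 or 2 (0.0828 and 0.186 from edgeR) were left out.

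For the other 4 genes with lower TE, the direct difference did not pass. The values against control were -0.37 in RPL3 OE and -0.25 in RPL3L OE cells for *Col1a1*, -0.44 and -0.42 for *Myl9*, -0.32 and -0.31 for *Thbs1* and -0.38 and -0.08 for *S100a6*. The direct differences were 0.12, 0.03, 0.01 and 0.30, with standard errors of 0.06, 0.08, 0.06 and 0.08 and adjusted p-values of 0.596, 0.939, 0.963 and 0.0838 from edgeR.

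The gene with the smallest p-value in the direct comparison was *Igfbp2*, which encodes a secreted binding protein of insulin-like growth factors. Its mRNA was at 380, 365 and 367 CPM in control, 134, 131 and 126 CPM in RPL3 OE and 513, 549 and 559 CPM in RPL3L OE cells, and its footprints at 655, 674.5 and 670.5, 252.5, 247 and 255, and 803, 752 and 756 CPM. The lowest mRNA and footprint levels were thus those of RPL3 OE cells, and they fell by 1.51 and 1.41 against control, so that TE there was at 0.10 (adjusted p = 0.696 from edgeR). In RPL3L OE cells TE was at -0.33, and the direct difference was -0.44 (standard error 0.06, adjusted p = 4.32e-05 from edgeR).

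*Smc4*, the gene for a condensin subunit, had a TE change of 0.10 in RPL3 OE and 0.41 in RPL3L OE cells. Its footprints were at 211, 184 and 211 CPM in RPL3 OE cells and at 212, 205.5 and 190 CPM in RPL3L OE cells, where they overlap, whereas its mRNA was at 418, 430 and 459.5 and at 364, 359 and 341.5 CPM, without overlap. The TE changes of *Agap1*, a gene for a GTPase-activating protein, were 0.10 in RPL3 OE and -0.54 in RPL3L OE cells, and those of *Sox9*, a transcription factor gene of cartilage, -0.01 and -0.40. *Ppil4*, a cyclophilin family gene, had 0.06 and 0.54. *P4ha2*, the gene for a subunit of collagen prolyl hydroxylase, had 0.20 and -0.35, *Ly6e* 0.16 and -0.22, *Ptgs1*, the gene for cyclooxygenase 1, 0.10 and -0.18, and *Actr3b* -0.38 and 1.15. *Actr3b* had few counts, with 13 to 23 in RPL3L OE RNA-seq and 13 to 24 in control Ribo-seq, and its direct difference had a standard error of 0.32. The adjusted p-values of these genes in the direct comparison lay between 0.000529 and 0.0227 from edgeR, and none passed between RPL3 OE and control cells.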

How the data were processed

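The 12 libraries were taken from 1 table of raw counts by transcript, deposited without normalization. RNA-seq libraries had been made from poly(A)-selected RNA with a directional kit. For Ribo-seq, the authors trimmed reads with cutadapt, removed rRNA reads and aligned the rest with STAR (GRCm38.p6 and mm10 in the submitters' processing notes) with multiple mapping allowed, used UMI-tools to collapse duplicates and featureCounts to count. Versions and strand settings are not given in the sources used here. All 23877 transcripts occur as 2 identical lines and entered once. GENCODE M21 (GRCm38) matched 23662, all on the plus strand, and the unmatched ones held at most 0.785% of the counts of a library. For each gene the transcript with the highest mean count was kept, if its RNA-seq and Ribo-seq counts each averaged at least 10 over control and RPL3 OE libraries. Of the genes tested, 20 share all counts with another, as overlapping or near-identical genes do.

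In R 4.3.3, edgeR 4.0.16 was used for quasi-likelihood tests, fitted to all 18 C2C12 libraries, with TMM within each assay, the group-by-assay interaction as TE, two-sided p-values adjusted by the Benjamini-Hochberg method over all genes and a threshold of 0.05. mRNA and footprints were fitted on 9 libraries each. Log2 CPM used a prior count of 2. Marker sums are CPM of all counts. The fit was run on simulated counts with the same dispersion for every gene, no GC trend and no outlying library. That run checks the code and says nothing of the calls given here. DESeq2 1.42.0, SciPy 1.17.1 and matplotlib 3.10.9 were also used. Genes named were those past the threshold for TE, the 8 next by p-value in each direction, up to 4 members of each list, the 10 with the smallest p-values in the direct comparison, *Rpl3* and *Rpl3l*, and the 3 largest changes in each direction of mRNA and footprints without overlap of the groups. Members and lists were chosen with earlier results of these data known, lists are described by counts and medians with no set test, and the removal of the GC trend (splines with 4 degrees of freedom) was added after the data had been seen. Of the 21 gene lists and 7 marker lists, members outside the table were not analysed. Disome-seq, m6A-seq, tRNA-seq and heart libraries are not analysed here. With 3 libraries per group and assay, SDs and p-values rest on few values.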

Additional observations from a re-analysis of the deposited data

Results flagged for a closer look

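In 8 genes, the change in TE against control passed in RPL3 OE or RPL3L OE cells and the direct test between these groups passed as well (edgeR's quasi-likelihood test, adjusted p under 0.05). The direct log2 difference, RPL3L OE minus RPL3 OE, was -0.44 for *Igfbp2*, -0.64 for *Agap1*, -0.39 for *Sox9* and -0.52 for *Zfhx3*, a homeobox gene of the zinc finger class, in which TE was lower in RPL3L OE cells. It was 0.40 for *S100a4*, 0.48 for *Ppil4*, 0.31 for *Smc4* and 0.47 for *Gid8*, a gene for a ubiquitin ligase subunit. In *S100a4* the change against control was that of RPL3 OE cells (-0.42), whereas in the other 7 genes it was that of RPL3L OE cells, with values in RPL3 OE cells between -0.01 and 0.10. Groups of 3 libraries are too small for the test of single outlying values, which was not run.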

How the results depend on the processing

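The number of genes with a TE change between RPL3 OE and control cells was 5. It was 11 with DESeq2, 3 with only the control and RPL3 OE libraries and 3 to 30 when each replicate was left out in turn, the latter without RPL3 OE replicate 3. The direct comparison with RPL3L OE cells gave 14 genes, 38 with all transcripts, 9 with the GC trend removed and 2 to 24 without 1 replicate. For mRNA, 970 genes became 2237 with all transcripts, which counts isoforms that share reads, and 695 to 1000 without 1 replicate. For footprints, 676 became 312 with DESeq2, 1452 with all transcripts and 473 to 647 without 1 replicate. The cause of these shifts was not tested, apart from the transcripts added by construction. Library totals moved the median log2 fold change of all genes in TE to 0.035. No direction was reversed in the genes refitted singly, those past a threshold for TE among them. The other filters left the counts within 1.5 times.

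Replicate numbers are shared by all groups, but nothing says that they mark a shared culture, and the pairing check gave correlations of deviations between same-numbered libraries of both assays of 0.107, 0.069 and 0.035 in control and -0.007, 0.051 and 0.059 in RPL3 OE cells. In 5 of these 6, an RNA-seq library correlated best with the Ribo-seq library of its own number. In RPL3L OE cells the correlations were -0.039, 0.019 and 0.040, and only replicate 3 correlated best with its own number. The replicate number as a block gave 5, 914, 687 and 13 genes for TE, mRNA, footprints and the direct comparison, and a block by group and number gave 14 genes for TE and 28 for the direct comparison. The block by group and number called 7 of the 8 genes next in line on the lower side (*Ccn2*, *S100a11*, *Larp1b*, *Bgn*, *Mthfd2l*, *Ing5* and *Msl3l2*), with adjusted p-values between 0.00361 and 0.0485 from edgeR. Depth limits genes with few counts, such as *Msl3l2* and *Col27a1*, with standard errors of 0.48 and 0.54.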

Other observations

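Without RPL3 OE replicate 3, whose Ribo-seq library stood apart, 30 genes had a lower and 0 a higher TE in RPL3 OE cells (edgeR, adjusted p under 0.05). Besides the 5 genes of the full comparison they included *Lgals1*, which encodes galectin 1 (log2 fold change -0.35, adjusted p = 0.00542), *Cfl1*, which encodes cofilin 1 (-0.30, adjusted p = 0.0121), *Ppia*, which encodes cyclophilin A (-0.31, adjusted p = 0.0192), and *Vim*, which encodes the intermediate filament protein vimentin (-0.29, adjusted p = 0.0187). The ribosomal protein genes *Rps15*, *Rplp0* and *Rplp2* (-0.35, -0.25 and -0.28), the heat shock gene *Hspb1* (-0.29) and the S100 genes *S100a10* and *S100a11* (-0.36 and -0.39) were also among them. The pairs *Hmga1* and *Hmga1b* and *Eno1* and *Eno1b* are near-identical genes that share reads. These genes are named after their values were seen, and the replicate left out was chosen for its distance from the others, so that the count is no test of its own.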
